A study of Mus musculus with 10 samples.

Results

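The epithelial alarmins and their receptors are 8 genes: the ligands Tslp, Il33, Il25 and Il7, and the receptor chains Crlf2, Il1rl1, Il17rb and Il7r. Their loci were defined as the RefSeq gene spans on GRCm38 (mm10), extended by 15 kb on both sides, and every deposited 1000-bp window that overlapped a locus was taken. This gave 123 windows of the 446336 in the table, of which 29 lay at Il17rb, 28 at Il25, 27 at Crlf2, 15 at Il1rl1, 13 at Il33, 7 at Il7, 2 at Tslp and 2 at Il7r. Windows were taken by position and not by their methylation values, but the 8 genes were chosen with earlier results of these data known. Windows started every 500 bp, so neighbours share reads. At Tslp, Il17rb, Il7 and Il7r, 1 window each held exactly the calls of the window before it.

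Alarmins are cytokines that barrier epithelium makes or releases on injury or allergen contact. TSLP binds a receptor made of CRLF2 and the IL-7 receptor α chain (Il7r), which also serves IL-7. IL-33 binds ST2, the product of Il1rl1, and IL-25 binds the IL-17RA and IL-17RB pair. In the lung these signals act on type 2 innate lymphoid cells, T helper 2 cells, mast cells and dendritic cells, and lead to the release of IL-4, IL-5 and IL-13. Methylation of CpGs at a promoter usually goes with a silent gene, and CpG-dense promoters are usually unmethylated whether or not the gene is in use.

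Lung DNA of 10 BALB/c mice, female and 8 weeks old per the study's methods, was profiled with SureSelect Methyl-seq, in which probes capture chosen regions and bisulfite conversion separates methylated from unmethylated CpGs. Saline mice (n = 3) received saline only. OVA-induced mice (n = 3) were sensitized with 50 µg of ovalbumin in alum and challenged intranasally with 25 µg on 4 days from day 12. DSE-treated mice (n = 4), labelled Herb, underwent the same OVA protocol and received 200 mg/kg of Descurainia sophia seed extract by mouth for 7 days. Whole lung was used, so that a change in the mix of cells and a change of methylation within a cell type cannot be told apart.

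Depth over all windows was 306656737 to 410836272 CpG calls per mouse. Over the alarmin and receptor windows it was 88540 to 120184 calls per mouse, and 119 of the 123 windows had at least 20 calls in every mouse. The methylation level of a window is the percentage of its calls that were methylated. A window was called hyper or hypo methylated when the adjusted p of a likelihood ratio test on the pooled calls was under 0.01 and the pooled levels differed by at least 10 percentage points. This test leaves out the spread between mice. For that reason values of single mice, an exact permutation test over mice and limma, whose test includes that spread, are given beside the calls. With so few mice the exact two-sided test reaches 0.1 at best between groups of 3, and 0.0571 between 3 and 4 mice. Comparisons share mice: the OVA-induced mice enter both OVA vs. saline and DSE vs. OVA, and the saline mice both comparisons with saline.

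The sequences around the starts set the frame for the values that follow, since the 4 promoters shown differ in how many CpGs they hold. CpGs are in capitals, and each sequence runs 5′ to 3′ on the strand of the gene, 300 bases that end 50 bases past the RefSeq start (GRCm38.p6). The median of all promoters in the RefSeq table was 7 CpGs.
Crlf2 promoter, 31 CpGs, chr5:109558944-109559243, minus strand: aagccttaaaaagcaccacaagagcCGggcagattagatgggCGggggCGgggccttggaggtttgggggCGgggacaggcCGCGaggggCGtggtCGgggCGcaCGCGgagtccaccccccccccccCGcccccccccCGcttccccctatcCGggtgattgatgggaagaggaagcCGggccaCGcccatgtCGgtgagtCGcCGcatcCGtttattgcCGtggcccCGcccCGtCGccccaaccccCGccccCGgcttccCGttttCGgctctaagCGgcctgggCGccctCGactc
Il17rb promoter, 32 CpGs, chr14:30008847-30009146, minus strand: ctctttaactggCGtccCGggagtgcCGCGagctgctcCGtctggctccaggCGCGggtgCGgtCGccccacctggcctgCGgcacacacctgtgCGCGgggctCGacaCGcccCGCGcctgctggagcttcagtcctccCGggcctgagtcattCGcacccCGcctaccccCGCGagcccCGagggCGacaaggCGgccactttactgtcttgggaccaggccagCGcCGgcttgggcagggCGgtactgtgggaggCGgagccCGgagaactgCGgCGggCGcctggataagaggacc
Il33 promoter at the upstream start, 6 CpGs, chr19:29924863-29925162, plus strand: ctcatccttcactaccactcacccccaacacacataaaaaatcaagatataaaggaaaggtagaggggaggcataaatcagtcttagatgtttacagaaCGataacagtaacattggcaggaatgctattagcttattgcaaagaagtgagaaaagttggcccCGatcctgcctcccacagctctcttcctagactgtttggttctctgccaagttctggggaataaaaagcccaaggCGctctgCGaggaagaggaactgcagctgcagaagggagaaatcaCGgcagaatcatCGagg
Il1rl1 promoter at the upstream start, 1 CpG, chr1:40429320-40429619, plus strand: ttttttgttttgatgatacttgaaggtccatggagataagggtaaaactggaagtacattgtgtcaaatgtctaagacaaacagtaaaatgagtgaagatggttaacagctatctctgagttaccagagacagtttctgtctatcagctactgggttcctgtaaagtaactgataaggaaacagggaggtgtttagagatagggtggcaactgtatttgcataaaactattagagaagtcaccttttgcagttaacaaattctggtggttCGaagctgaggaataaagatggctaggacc

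Further stretches of 300 bases, from windows in which saline mice lay above all other mice, are shown on the plus strand (GRCm38). Each is the part with the most CpGs of the bases shared by 2 windows.
Il1rl1 first intron, 5 CpGs, chr1:40430001-40430300: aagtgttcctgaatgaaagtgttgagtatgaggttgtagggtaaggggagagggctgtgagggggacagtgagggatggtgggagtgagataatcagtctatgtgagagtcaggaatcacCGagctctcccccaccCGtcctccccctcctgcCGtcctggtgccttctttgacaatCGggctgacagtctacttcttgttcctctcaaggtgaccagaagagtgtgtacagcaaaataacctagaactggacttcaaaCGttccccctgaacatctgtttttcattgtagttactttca
Il7r upstream stretch, 3 CpGs, chr15:9533501-9533800: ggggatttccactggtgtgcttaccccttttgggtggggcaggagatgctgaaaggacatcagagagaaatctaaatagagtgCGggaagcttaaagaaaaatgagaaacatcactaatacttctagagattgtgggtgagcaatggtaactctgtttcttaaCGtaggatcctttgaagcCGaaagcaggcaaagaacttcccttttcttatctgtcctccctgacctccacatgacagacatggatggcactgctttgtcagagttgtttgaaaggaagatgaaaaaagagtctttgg

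Averaged over their windows, the 8 loci together did not separate the groups: the mean level was 54.0% ± 0.403 (SD, n = 3) for saline mice, 54.0% ± 0.139 (n = 3) for OVA-induced mice and 53.9% ± 0.395 (n = 4) for DSE-treated mice. Over all windows of the table the means were 51.2%, 52.4% and 52.3%. Loci differed far more from each other than groups did. In saline mice the locus mean ran from 1.24% at Tslp through 21.4% at Il7, 23.4% at Il33, 42.9% at Il7r, 50.9% at Il25, 58.2% at Il1rl1 and 61.9% at Crlf2 to 73.1% at Il17rb. Of the neighbours in this order, only Il7 and Il33 overlapped between saline mice. Of the 119 windows covered in every mouse, 27 lay under 20% in saline mice, 61 from 20 to 80% and 31 above 80%. These shares of 22.7%, 51.3% and 26.1% were near those of all windows, 22.3%, 55.3% and 22.4%.

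**Figure D1:**
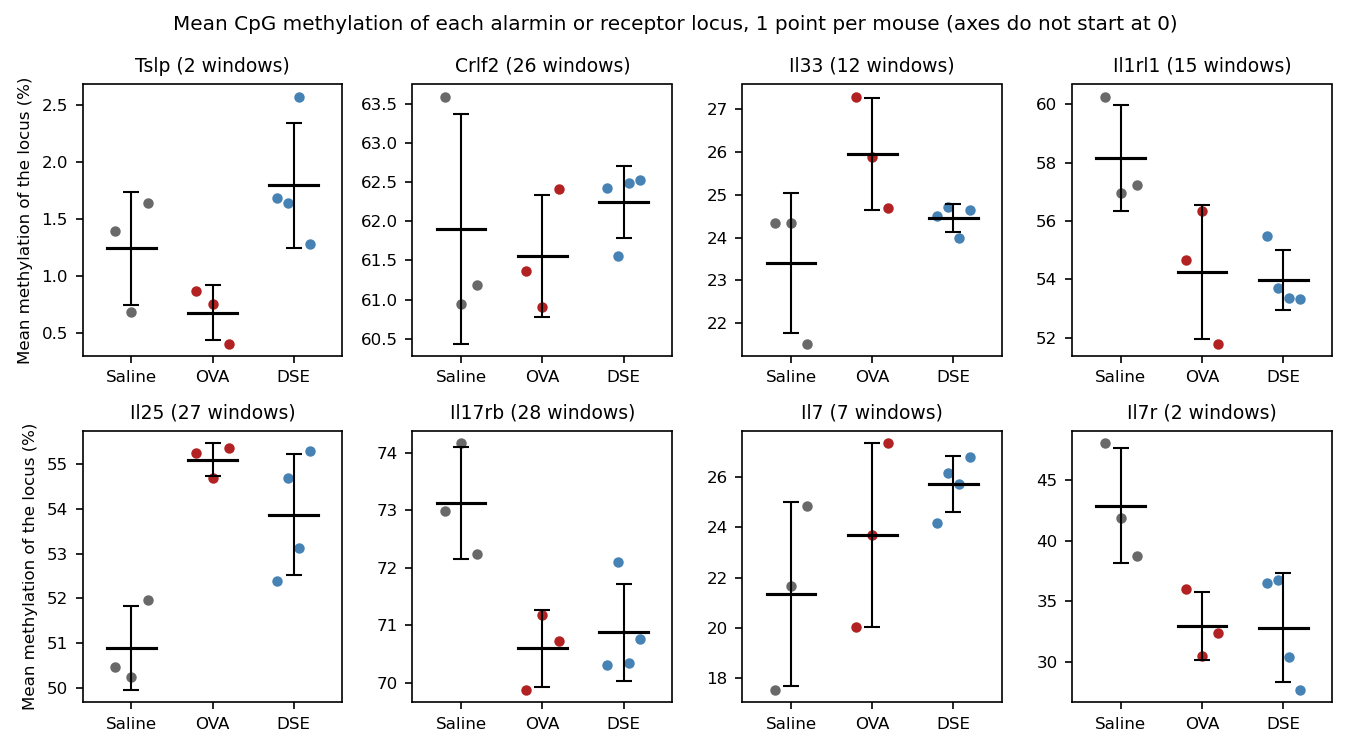
Mean methylation (%, y axis, not starting at 0) of each locus in saline, OVA-induced and DSE-treated mice (x axis), over the windows with 20 calls in every mouse; points are mice, lines the mean and bars the SD. The Il25 means of OVA-induced mice (54.7 to 55.4%) lie above those of saline mice (50.2 to 52.0%), while the Il17rb and Il7r means lie below.

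In OVA vs. saline, 6 of the 121 windows tested were called, 3 hyper methylated (1 at Crlf2, 2 at Il25) and 3 hypo methylated (1 at Crlf2, 2 at Il17rb). That is 4.96% of the members, against 4.75% hyper methylated and 2.56% hypo methylated among all 436201 windows tested. In DSE vs. OVA, 1 window was hyper methylated (Crlf2) and 2 were hypo methylated (Crlf2, Il25) of 121 tested, 2.48%, against 0.898% and 0.725% of all windows. In DSE vs. saline, 2 windows were hyper methylated (Il25, Il7) and 2 hypo methylated (both at Il1rl1) of 122 tested. That is 3.28%, against 8.01% of all windows (4.95% hyper methylated and 3.07% hypo methylated). Tslp, Il33 and Il7r had no called window in any of the 3 comparisons.

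Mice of the 2 groups did not overlap in 40 of 121 windows (33.1%) in OVA vs. saline, against 26.9% of all windows. They did not overlap in 13 of 121 (10.7%) in DSE vs. OVA, against 10.5%, and in 21 of 122 (17.2%) in DSE vs. saline, against 24.0%. Of the called windows, 5 of 6, 2 of 3 and 2 of 4 were among them. limma called 0 member windows in each comparison at an adjusted p under 0.05 and 10 points. Over all windows it called 0 of 436201 in OVA vs. saline, 243 of 437460 in DSE vs. OVA and 14981 of 440215 in DSE vs. saline. At an unadjusted p under 0.05 limma counted 29 of 121, 12 of 121 and 22 of 122 member windows in OVA vs. saline, DSE vs. OVA and DSE vs. saline. Over all windows it counted 83579 of 436201, 42261 of 437460 and 106432 of 440215. An F test with overdispersion counted 23, 9 and 19 member windows at an unadjusted p under 0.05. With all 10 mice in 1 limma fit, an alternative added after seeing the data, the count for the members was again 0 in each, where 2.42%, 0.185% and 4.24% of all windows were called. The likelihood ratio test alone, without the limit of 10 points, counted 35, 13 and 36 member windows at an adjusted p under 0.01. Counts over all windows are not given for this setting or for the F test, so these member counts cannot be set against a share of all windows.

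**Figure D2:**
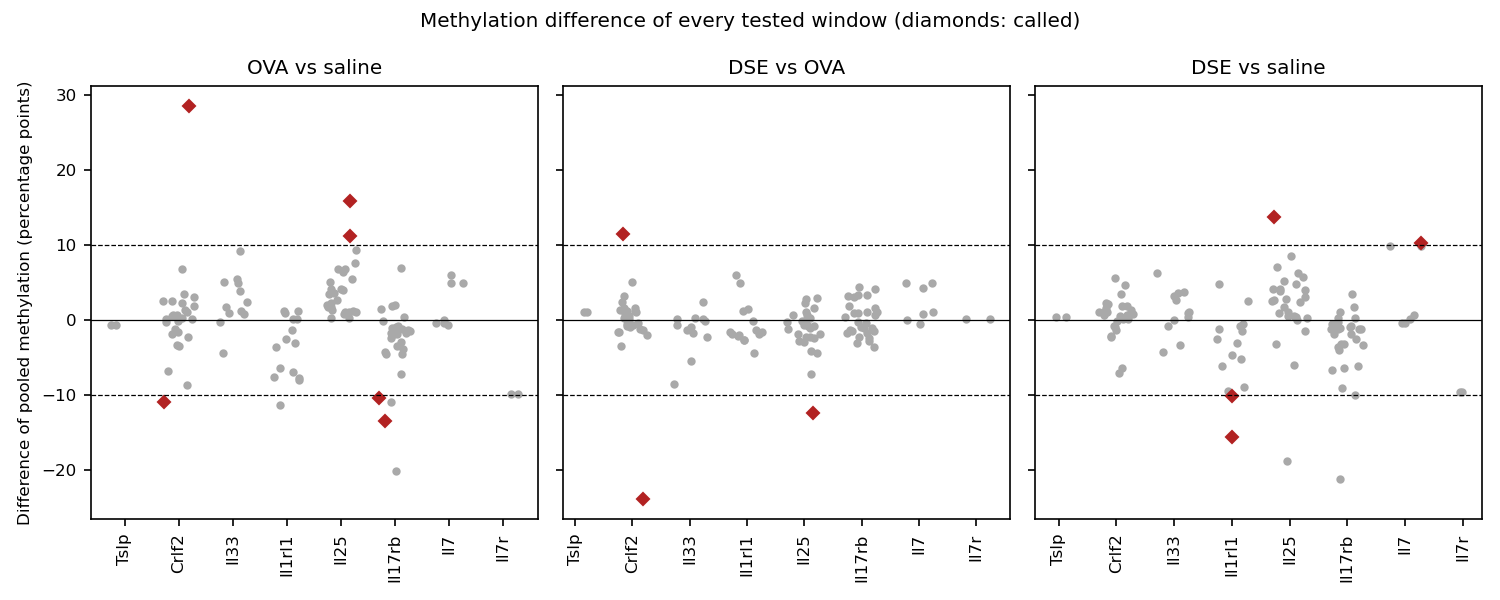
Difference of the pooled methylation level (percentage points, y axis) of every tested window by gene (x axis) in the 3 comparisons; red diamonds are called windows, grey points the others, and dashed lines mark 10 points. All 27 tested Il25 windows lie above 0 in OVA vs. saline, and 24 of 29 Il17rb windows lie below 0.

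Tslp, the cytokine that epithelium sends to dendritic cells and innate lymphoid cells, was covered only by a pair of windows with identical calls near its second RefSeq start (chr18:32816501-32817500, 24 CpGs, exon 4 of the longer transcript, 731 to 1152 calls). This stretch was almost free of methylation. Levels were 1.40%, 0.680% and 1.64% in the saline mice. They were 0.868%, 0.749% and 0.403% in the OVA-induced mice and 1.69%, 1.64%, 2.57% and 1.28% in the DSE-treated mice. Each DSE-treated mouse was above each OVA-induced mouse, but the difference was 1.06 points and was not called (exact permutation p = 0.0571; adjusted likelihood ratio p = 0.00161; limma adjusted p = 0.163). At such levels 3 to 20 methylated calls per mouse carry the value; the 95% Wilson interval was 0.137 to 1.18% for the lowest mouse and 1.67 to 3.94% for the highest, and covers counting error only.

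Crlf2, the chain that gives the TSLP receptor its specificity, had a CpG-dense and unmethylated start. The start window (chr5:109558501-109559500, exon 1, 76 CpGs, 158 to 592 calls) measured 4.93%, 5.17% and 5.69% in saline mice, 2.20%, 6.90% and 1.97% in OVA-induced mice and 3.80%, 5.32%, 6.33% and 3.43% in DSE-treated mice. The groups overlapped and no comparison was called. Downstream of it the level rose from 2.13% at 1.49 kb to 83.7% at 2.99 kb past the start in saline mice, and stayed at 65.4% or more over the rest of the gene and the flank except in the last window, described below. The Crlf2 locus mean was 61.9% ± 1.47 in saline mice, 61.6% ± 0.777 in OVA-induced mice and 62.3% ± 0.462 in DSE-treated mice, with overlap of all groups.

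Just before the dense start, the window chr5:109559001-109560000 (31 CpGs, 58 to 180 calls), whose centre is 0.508 kb upstream, was called in OVA vs. saline (hypo methylated) and in the reverse direction in DSE vs. OVA. Saline mice measured 22.7%, 13.8% and 22.1%, OVA-induced mice 7.22%, 15.3% and 6.78%, and DSE-treated mice 20.6%, 10.5%, 34.4% and 18.9%. The second OVA-induced mouse lay above the second saline mouse and the second DSE-treated mouse, so that the groups overlapped in both comparisons. OVA vs. saline gave a difference of -10.9 points (adjusted likelihood ratio p = 0.00143; limma adjusted p = 0.183; exact permutation p = 0.2). DSE vs. OVA gave 11.6 points (adjusted likelihood ratio p = 0.000148; limma adjusted p = 0.489; exact permutation p = 0.114). Without saline replicate 1, saline replicate 3 or OVA replicate 1 the first call was lost, with differences down to -8.37 points, and without OVA replicate 1 or DSE replicate 3 the second was lost, with 8.25 points at the lowest.

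At the other end of the locus, 13 kb past the start in intergenic sequence, lay a window with 4 CpGs. Of all member windows it had the largest called difference in OVA vs. saline (hyper methylated) and the largest of the opposite sign in DSE vs. OVA. Saline mice measured 38.5%, 35.7% and 51.9%, OVA-induced mice 72.5%, 80.6% and 64.9%, and DSE-treated mice 39.1%, 56.4%, 33.3% and 58.0%. Every OVA-induced mouse was above every other mouse. Depth was the lowest among the called windows, 14 to 50 calls per mouse, and saline replicate 2, with 14 calls, was left out of the fit by the limit of 20. The 95% Wilson interval of that mouse was 16.3 to 61.2%, and that of OVA replicate 3, the lowest OVA-induced mouse, 48.8 to 78.2%.

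The differences in this window were 28.6 points in OVA vs. saline (adjusted likelihood ratio p = 0.000814; limma adjusted p = 0.131; exact permutation p = 0.2) and -23.8 points in DSE vs. OVA (adjusted likelihood ratio p = 0.00112; limma adjusted p = 0.239; exact permutation p = 0.0571). With 2 saline mice against 3 the exact p cannot be smaller than 0.2. Without OVA replicate 2 both calls were lost (24.9 and -20.1 points), and the second was lost without DSE replicate 1 (-19.8 points). Without saline replicate 1 or 3 the first could not be tested. DSE vs. saline differed by 4.78 points and was not called. The neighbouring window that shares 500 bp with it, with 179 calls or more, differed by 6.86 points in OVA vs. saline, while DSE vs. OVA gave -1.21 points there.

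**Figure D3:**
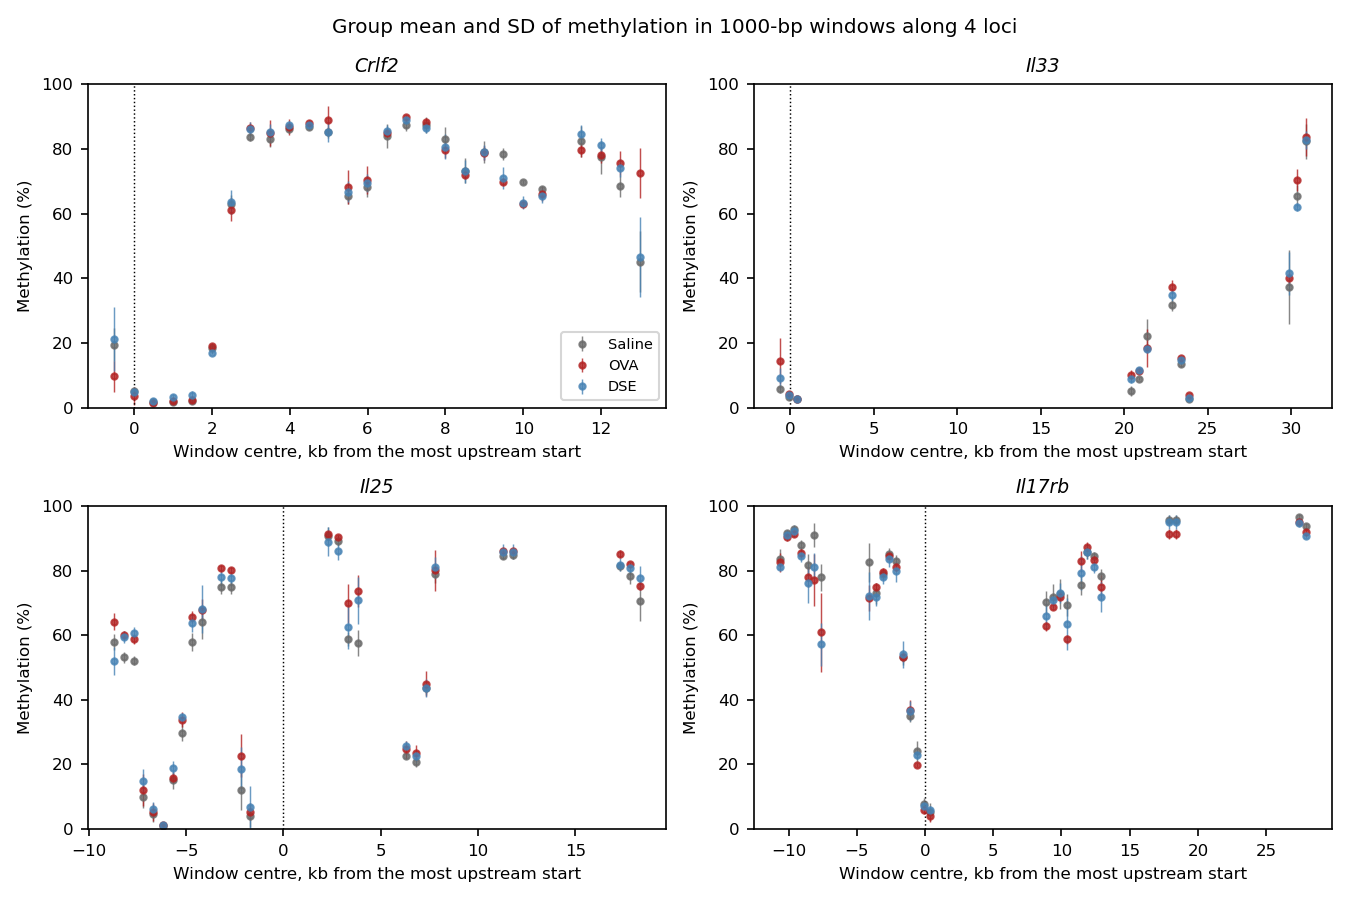
Mean methylation (%, y axis) in saline, OVA-induced and DSE-treated mice of each window against the distance of its centre from the most upstream start (kb, x axis, in the direction of transcription; dotted line at the start) for Crlf2, Il33, Il25 and Il17rb; bars are SD over mice, and 2 thinly covered windows (1 at Il33, 1 at Il25) are not drawn. Crlf2 and Il17rb have levels under 10% at the start. Of the windows covered in every mouse, 10 of 26 at Crlf2 and 15 of 28 at Il17rb exceed 80% in saline mice. The Il25 windows under 20% in saline mice lie before its start, most of them over the first exon of the neighbouring Efs.

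Il33, a nuclear cytokine that damaged barrier cells release, had low levels at both of its starts although neither holds many CpGs. At the upstream start (chr19:29924501-29925500, exon 1, 13 CpGs, 323 to 719 calls) saline mice measured 3.12%, 4.04% and 2.57%, OVA-induced mice 4.25%, 4.89% and 3.10%, and DSE-treated mice 2.83%, 5.42%, 3.81% and 4.11%. All groups overlapped there. At the second start (chr19:29945501-29946500, intron 2 of the longer transcript, 11 CpGs, 744 to 1669 calls) they measured 8.73%, 9.40% and 8.79%, then 10.6%, 12.02% and 11.3%, then 11.5%, 10.8%, 11.5% and 13.0%. Each saline mouse was below all OVA-induced and all DSE-treated mice. The differences were 2.42 points in OVA vs. saline (adjusted likelihood ratio p = 0.0103; exact permutation p = 0.1) and 2.73 in DSE vs. saline (adjusted likelihood ratio p = 0.000276; exact permutation p = 0.0571), under the limit of 10.

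The window shifted by 500 bp upstream of that start gave 5.04%, 3.43% and 6.58% in saline mice, 8.08%, 10.9% and 10.9% in OVA-induced mice and 7.82%, 8.12%, 8.83% and 10.5% in DSE-treated mice. Its differences from saline were 4.97 points (adjusted likelihood ratio p = 2.52e-09; limma adjusted p = 0.133; exact permutation p = 0.1) and 3.72 points (adjusted likelihood ratio p = 1.19e-07; limma adjusted p = 0.0758; exact permutation p = 0.0571), likewise not called. Over the Il33 locus, 10 of 12 tested windows exceeded saline in the OVA-induced group, with a median difference of 2.13 points against 0.732 over all windows tested, and 8 of 12 went down in DSE vs. OVA (median -0.741 points). The locus mean was 23.4% ± 1.63 in saline mice, 25.9% ± 1.29 in OVA-induced mice and 24.5% ± 0.329 in DSE-treated mice. A thinly covered window in intron 2 (chr19:29947001-29948000, 15 CpGs, 12 to 29 calls) was tested in no comparison and is not in these counts. It measured 71.4%, 68.75% and 66.7% in saline mice, 75.0%, 79.3% and 75.0% in OVA-induced mice and 38.5 to 75.0% in the 4 DSE-treated mice.

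Il1rl1, which encodes the IL-33 receptor ST2 carried by type 2 lymphoid cells and mast cells, had a methylated upstream start in lung DNA. All 15 windows lay between 20 and 80% in saline mice. The window over the upstream start (chr1:40429001-40430000, exon 1, 6 CpGs, 307 to 643 calls) measured 71.5%, 70.0% and 70.2% in saline mice, 69.7%, 65.2% and 67.4% in OVA-induced mice and 65.8%, 63.8%, 66.9% and 67.3% in DSE-treated mice. Saline mice were the highest, with differences of -3.05 points for OVA-induced and -4.62 for DSE-treated mice, neither called. The second start had no window centred within 1 kb.

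The first intron, 0.931 kb past this start, was hypo methylated in DSE vs. saline (chr1:40430001-40431000, 7 CpGs, 256 to 553 calls; 5 of the CpGs are in the stretch printed above). Saline mice measured 70.5%, 69.6% and 72.4%, OVA-induced mice 66.0%, 62.5% and 62.5%, and DSE-treated mice 67.8%, 57.9%, 60.1% and 55.8%. Both OVA-exposed groups lay below all saline mice. The differences were -10.1 points in DSE vs. saline (adjusted likelihood ratio p = 1.39e-07; limma adjusted p = 0.0957; exact permutation p = 0.0571) and -7.48 in OVA vs. saline (adjusted likelihood ratio p = 0.00125; exact permutation p = 0.1). As the call sat at the limit, it was lost without saline replicate 3 or DSE replicate 2, 3 or 4 (-8.71 points at the smallest). The window that overlaps it by 500 bp towards the start measured 75.4% ± 1.24, 68.1% ± 3.23 and 65.8% ± 2.93, with a difference of -9.41 points in DSE vs. saline (adjusted likelihood ratio p = 1.59e-10; limma adjusted p = 0.0536; exact permutation p = 0.0571). The window that overlaps the called one by 500 bp on the other side, with 66 to 405 calls, did not share the drop. Its levels were 73.5% ± 0.282, 74.1% ± 6.44 and 72.9% ± 3.2, with -0.429 points in DSE vs. saline and 1.32 in OVA vs. saline.

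The second Il1rl1 call lay 39.4 kb past the second start, in exon 4 of the neighbouring Il18r1, a chain of the IL-18 receptor (chr1:40478501-40479500, 10 CpGs, 22 to 194 calls). Levels were 76.0%, 68.6% and 70.0% in saline mice, 65.5%, 64.5% and 40.9% in OVA-induced mice and 52.5%, 51.0%, 66.8% and 52.9% in DSE-treated mice. Saline mice were again the highest, with -15.6 points in DSE vs. saline (adjusted likelihood ratio p = 0.000994; limma adjusted p = 0.0806; exact permutation p = 0.0571) and -11.2 in OVA vs. saline (adjusted likelihood ratio p = 0.128; exact permutation p = 0.1). The call was lost without saline replicate 1. The window that shares 500 bp with it, with 547 calls or more, measured 37.2% ± 4.38, 29.15% ± 1.58 and 34.1% ± 1.61 in the 3 groups. There DSE vs. saline differed by -2.99 points, with overlap of the mice, and OVA vs. saline by -7.92 points, neither called. Over the Il1rl1 locus, 10 of 15 windows were lower in OVA-induced mice and 13 of 15 in DSE-treated mice than in saline mice. Its mean was 58.2% ± 1.82 in saline mice, 54.3% ± 2.29 in OVA-induced mice and 54.0% ± 1.02 in DSE-treated mice.

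Il25, the cytokine of tuft cells that drives type 2 responses, lay among close neighbours: Efs upstream, Cmtm5 and Myh6 downstream. The gene itself had no window centred within 1 kb of its start, and the 3 windows that reached its last exon measured 90.6%, 89.3% and 58.8% in saline mice. In all 27 windows tested OVA-induced mice had a higher pooled level than saline mice (median 3.46 points), and in 24 of 28 so did DSE-treated mice (median 2.70 points). In DSE vs. OVA 18 of 27 were lower (median -0.766 points). The locus mean was 50.4%, 50.2% and 52.0% in the saline mice, 55.3%, 54.7% and 55.4% in the OVA-induced mice and 52.4%, 54.7%, 53.1% and 55.3% in the DSE-treated mice, so that saline mice lay below all others. These windows share reads and mice and are not 27 separate measurements.

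The called part of the locus began in the last exon of Il25 and ran over the first exon of Cmtm5, a membrane protein gene. In the window chr14:54936001-54937000 (13 CpGs, 73 to 105 calls) saline mice measured 56.0%, 54.8% and 62.1%, OVA-induced mice 69.6%, 72.3% and 79.0%, and DSE-treated mice 70.5%, 75.0%, 60.8% and 76.9%. It was hyper methylated by 16.0 points in OVA vs. saline (adjusted likelihood ratio p = 0.000503; limma adjusted p = 0.117; exact permutation p = 0.1), where the mice did not overlap. In DSE vs. saline it was hyper methylated by 13.8 points (adjusted likelihood ratio p = 0.00172; limma adjusted p = 0.113; exact permutation p = 0.114), where DSE replicate 3 lay within the saline range. The first call was lost without OVA replicate 3 (13.1 points), the second without saline replicate 1, saline replicate 2 or DSE replicate 4. The window before it, which shares 500 bp, was hyper methylated by 11.2 points in OVA vs. saline (56.3%, 59.6% and 60.3% in saline mice against 66.0%, 66.9% and 76.9%; adjusted likelihood ratio p = 0.00268; limma adjusted p = 0.189; exact permutation p = 0.1), a call that was lost without saline replicate 1 or OVA replicate 3.

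The second Il25 call lay 8.69 kb before the start, in intron 1 of Efs, an adaptor protein gene (chr14:54923501-54924500, 7 CpGs, 114 to 245 calls). Saline mice measured 55.7%, 60.5% and 57.7%, OVA-induced mice 63.3%, 62.0% and 67.0%, and DSE-treated mice 46.9%, 56.9%, 50.8% and 53.7%. Each OVA-induced mouse exceeded all 7 others. The window was hypo methylated in DSE vs. OVA by -12.4 points (adjusted likelihood ratio p = 0.000175; limma adjusted p = 0.223; exact permutation p = 0.0571), and this call held with each of the 7 mice left out in turn. In OVA vs. saline the difference was 6.43 points (adjusted likelihood ratio p = 0.104; exact permutation p = 0.1). The next window, which shares 500 bp and has 1090 calls or more, measured 53.2%, 60.0% and 59.4% in the 3 groups, so that the DSE-treated mean there was not below the saline mean.

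Il17rb, the chain that binds IL-25, shares its CpG-dense promoter with Chdh, a choline-oxidising enzyme read in the other direction. The start window (chr14:30008501-30009500, exon 1, 59 CpGs, 1199 to 2008 calls) measured 7.30%, 9.74% and 6.45% in saline mice, 5.98%, 6.95% and 4.65% in OVA-induced mice and 6.44%, 6.56%, 8.34% and 6.67% in DSE-treated mice. The groups overlapped, and the difference in OVA vs. saline was -1.82 points (adjusted likelihood ratio p = 0.00218; exact permutation p = 0.2), not called. Of 29 windows tested, 24 were lower in OVA-induced mice and 24 in DSE-treated mice than in saline mice (medians -1.72 and -1.17 points). Locus means were 73.0%, 74.2% and 72.2% in saline mice, 69.9%, 71.2% and 70.7% in OVA-induced mice and 70.3%, 72.1%, 70.3% and 70.8% in DSE-treated mice, with the lowest saline mouse just above the highest DSE-treated mouse.

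Both Il17rb calls lay upstream, in intron 1 of Chdh, and both were hypo methylated in OVA vs. saline. In the window 8.11 kb upstream (chr14:30016501-30017500, 11 CpGs, 40 to 88 calls) saline mice measured 90.8%, 95.0% and 87.3%, OVA-induced mice 71.6%, 86.2% and 73.1%, and DSE-treated mice 83.3%, 85.2%, 80.7% and 75.7%. All OVA-induced and DSE-treated mice lay below all saline mice. The differences from saline were -13.4 points (adjusted likelihood ratio p = 0.0015; limma adjusted p = 0.156; exact permutation p = 0.1) and -8.97 points, the latter not called. The call was lost without saline replicate 1 or 2 or OVA replicate 1 or 3. The window 4.11 kb upstream (22 CpGs, 78 to 165 calls) measured 77.95%, 80.5% and 89.4% in saline mice, 69.2%, 76.3% and 69.2% in OVA-induced mice and 67.3%, 64.5%, 75.6% and 80.6% in DSE-treated mice. Its difference was -10.4 points in OVA vs. saline (adjusted likelihood ratio p = 0.00585; limma adjusted p = 0.207; exact permutation p = 0.1), and the call was lost without saline replicate 3 or OVA replicate 1 or 3. The window 7.61 kb upstream, which shares 500 bp with the first, had larger differences from saline (-20.1 points for OVA-induced and -21.1 for DSE-treated mice) that were not called. It had 11 to 44 calls, and 2 mice of each group reached the limit of 20 (adjusted likelihood ratio p = 0.066 and 0.0773; exact permutation p = 0.333 in both). The window 8.61 kb upstream shares the other 500 bp of the first called window and had 41 to 100 calls. It differed by -3.79 points in OVA vs. saline and by -6.06 in DSE vs. saline. The window 3.6 kb upstream, with 743 calls or more, shares 500 bp with the second called window. It differed by 1.99 points in OVA vs. saline, in the other direction, and by -0.756 in DSE vs. saline. Neither was called.

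**Figure D4:**
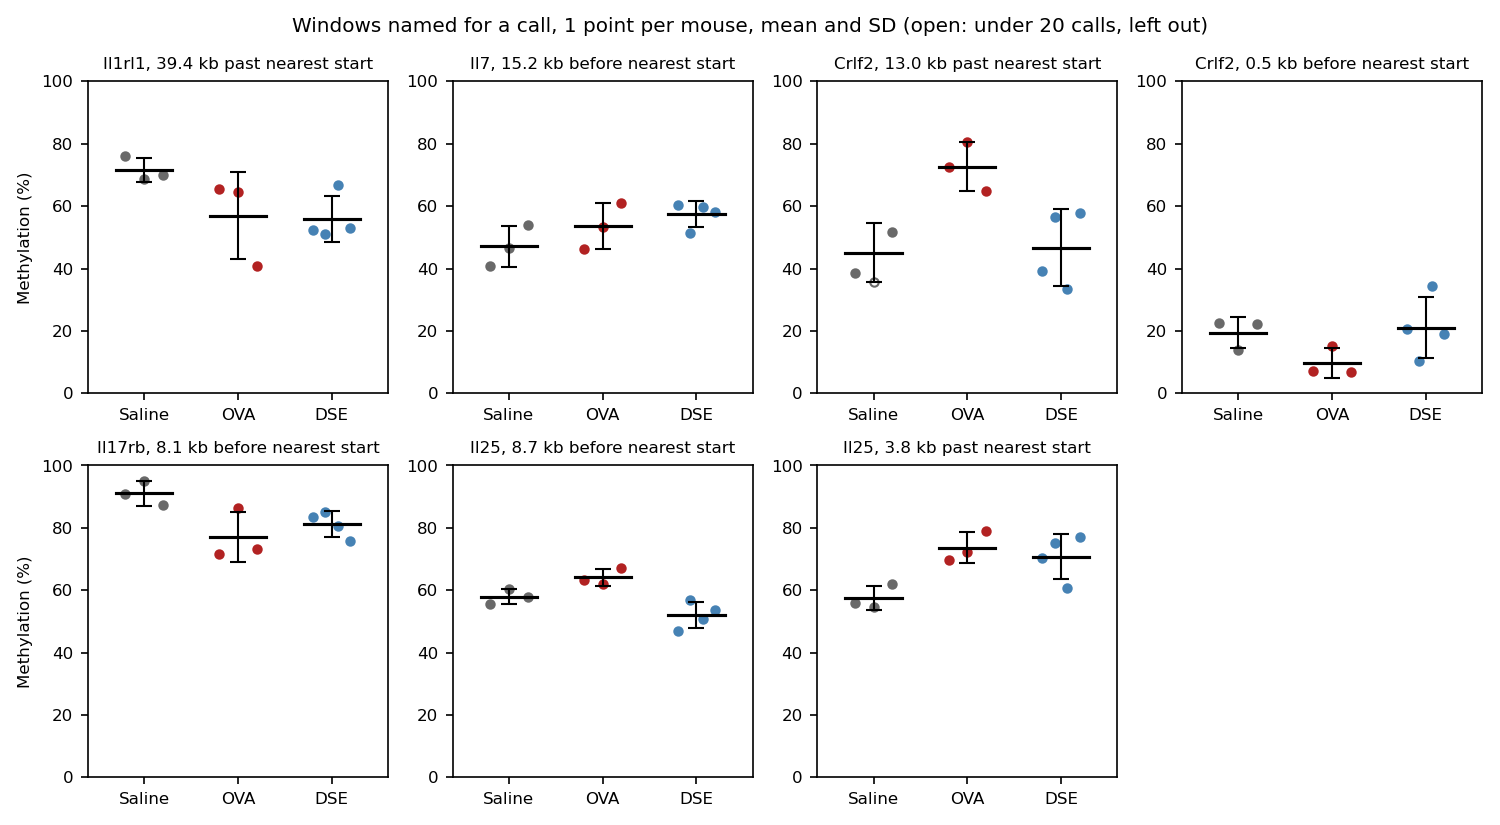
Methylation (%, y axis from 0 to 100) of the 7 windows named for a call in each saline, OVA-induced and DSE-treated mouse (x axis); lines are means, bars SD, and the open circle is a saline mouse with 14 calls that was left out. In the Crlf2 window 13.0 kb past the start the OVA-induced mice lie at 64.9 to 80.6%, above all other mice.

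Il7, a stromal and epithelial cytokine of lymphocyte survival, had unmethylated starts. The window over the downstream start (chr3:7612501-7613500, 48 CpGs, 1369 to 2226 calls) measured 1.06%, 1.70% and 1.52% in saline mice, 1.07%, 1.17% and 1.01% in OVA-induced mice and 0.943%, 1.58%, 0.146% and 1.60% in DSE-treated mice. At the upstream start (chr3:7613501-7614500, 14 CpGs, 231 to 413 calls) group means were 5.68% ± 1.75, 5.40% ± 0.796 and 6.58% ± 1.69. No comparison was called at either. The called window lay 15.2 kb upstream, in intron 1 of the noncoding Gm16685 (chr3:7628501-7629500, 4 CpGs, 179 to 786 calls). Saline mice measured 40.8%, 46.6% and 54.1%, OVA-induced mice 46.4%, 53.5% and 61.0%, and DSE-treated mice 60.3%, 51.4%, 59.9% and 58.1%.

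The groups overlapped in that Il7 window. DSE vs. saline was hyper methylated by 10.3 points (adjusted likelihood ratio p = 2.39e-06; limma adjusted p = 0.154; exact permutation p = 0.114), and the call was lost without saline replicate 1 or 2 or DSE replicate 1 or 3. The pair of windows 0.741 and 1.24 kb before the upstream start gave 45.8% ± 8.12, 51.4% ± 9.31 and 55.8% ± 4.94, with 9.99 points in DSE vs. saline (adjusted likelihood ratio p = 0.00208; exact permutation p = 0.114), just under the limit. Saline mice alone ranged from 37.2 to 53.4% there.

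Il7r, the chain shared by the IL-7 and TSLP receptors and carried by lymphocytes, had no window at its start. Its only values came from the upstream stretch printed above, 3.62 to 4.12 kb before the start in intergenic sequence (chr15:9533001-9534500, a pair of windows with the same 174 to 611 calls). Levels were 48.0%, 41.9% and 38.7% in saline mice, 36.0%, 30.5% and 32.3% in OVA-induced mice and 36.5%, 36.7%, 30.4% and 27.7% in DSE-treated mice. Every OVA-induced and every DSE-treated mouse was below every saline mouse. The differences from saline were -9.77 points (adjusted likelihood ratio p = 0.00102; limma adjusted p = 0.188; exact permutation p = 0.1) and -9.58 points (adjusted likelihood ratio p = 1.22e-05; limma adjusted p = 0.127; exact permutation p = 0.0571), both just under the limit of 10. DSE vs. OVA differed by 0.193 points.

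Beside the lower levels at the 3 receptor loci Il1rl1, Il17rb and Il7r, leukocyte markers moved in the same mice. Promoter windows were present for 11 of 15 leukocyte genes on the list. Their mean level was 57.0 to 57.8% in saline mice, 51.4 to 54.6% in OVA-induced mice and 50.1 to 53.8% in DSE-treated mice. Of 40 tested windows, 1 was hyper and 10 hypo methylated in OVA vs. saline (5 of the hypo methylated at Ptprc, the pan-leukocyte CD45, and 4 at Cd48), 27.5% against 7.31% of all windows. In DSE vs. saline 0 were hyper and 10 hypo methylated, 25% against 8.01%, and in DSE vs. OVA 0 were called, against 1.62%. Promoters of lung epithelium (8 of 10 genes) averaged 34.0 to 34.6%, 35.6 to 36.5% and 35.6 to 37.8%, and of 30 windows 2 were hyper methylated in OVA vs. saline (6.67%), 4 in DSE vs. saline (13.3%) and 0 in DSE vs. OVA, with no hypo methylated window. Endothelial promoters (2 of 5 genes) averaged 16.3 to 20.8%, 23.0 to 25.7% and 21.4 to 24.2%, with 0 of 7 called in each comparison. The part of the cell mix in the Il1rl1, Il17rb, Il7r and Il25 differences was not tested.

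The partners of these receptors were described from a list of 12 co-receptor and signalling genes with 392 windows, those of the neighbouring Stat5a and Stat5b counted once. In OVA vs. saline 24 were hyper and 28 hypo methylated of 388 tested (13.4%, against 7.31% of all windows). In DSE vs. OVA 5 were hyper and 0 hypo methylated of 389 (1.29%, against 1.62%), and in DSE vs. saline 23 and 23 of 390 (11.8%, against 8.01%). Il17ra, the co-receptor of Il17rb, gave 9 of the hypo methylated windows in OVA vs. saline, and Traf3ip2, the adaptor of IL-17 receptors, 6 of the hyper methylated ones. Il2rg and Myd88 had none there. The medians of the 3 comparisons were 0.177, -0.302 and 0.0719 points. Type 2 effector genes (7 genes such as Il4, Il5, Il13 and Gata3; 275 windows) gave 9 hyper and 5 hypo methylated, 2 and 0, and 15 and 6 called windows in the 3 comparisons. These are 5.11%, 0.730% and 7.64% of the windows tested, each below the share of all windows.

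Among the partners, 4 genes had a called window within 1 kb of a start. At Il1rap, the co-receptor that joins ST2 to signal IL-33, the window chr16:26580501-26581500 was hyper methylated by 13.7 points in DSE vs. OVA and by 14.5 in DSE vs. saline. Its levels were 19.8%, 17.7% and 19.7% in saline mice, 17.3%, 24.96% and 16.4% in OVA-induced mice and 34.6%, 34.7%, 33.6% and 31.0% in DSE-treated mice, with 1196 calls or more. All DSE-treated mice lay above all others (limma with all mice, adjusted p = 0.057 against OVA and 0.0173 against saline). Calls over the whole Il1rap locus of 18 windows went both ways. In OVA vs. saline 0 were hyper and 4 hypo methylated, in DSE vs. OVA 2 and 0, and in DSE vs. saline 2 and 4. The locus mean was 46.1% in saline mice, 41.6% in OVA-induced mice and 42.8% in DSE-treated mice.

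Stat5a and Stat5b, the transcription factors used by the TSLP and IL-7 receptors, each had 1 window near a start that was hypo methylated in both OVA-exposed groups. Over the whole loci calls went both ways, 3 hyper and 4 hypo methylated at Stat5a and 6 and 4 at Stat5b in OVA vs. saline, and 3 and 5 and 6 and 4 in DSE vs. saline. In the Stat5a window (chr11:100861001-100862000) saline mice measured 42.7%, 43.5% and 51.4%, OVA-induced mice 33.2%, 31.9% and 29.5%, and DSE-treated mice 30.9%, 24.3%, 27.7% and 24.9%, with differences from saline of -14.7 and -18.9 points (limma with all mice, adjusted p = 0.0434 and 0.0131). In the Stat5b window (chr11:100821501-100822500, 2511 calls or more) the 3 saline mice measured 62.1%, 60.3% and 62.0%, and the others 45.6 to 52.3%, with -11.5 and -13.1 points (limma with all mice, adjusted p = 0.042 and 0.0184). The limma fit with all mice was added after seeing the data. With the mice of the compared groups only, limma called 0 of all 436201 windows in OVA vs. saline. Irak1, a kinase below ST2, was hyper methylated by 11.3 points in OVA vs. saline (limma with all mice, adjusted p = 0.159). In both Stat5 windows saline mice lay above all others, while OVA-induced and DSE-treated mice overlapped. Leukocyte promoters were also highest in saline mice, and the part of the cell mix was not tested.

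The limit of 15 kb left out a few windows with sizeable values. The nearest window before the Il33 locus, 23.6 kb from the gene, measured 75.3% ± 1.84 in saline mice, 52.5% ± 10.2 in OVA-induced mice and 61.9% ± 3.03 in DSE-treated mice, and was hypo methylated by -23.1 points in OVA vs. saline, while DSE vs. saline gave -13.6 points. The nearest window after the Il33 locus, 17.8 kb away, was hyper methylated by 17.7 points in DSE vs. OVA (24.9% ± 5.69 against 42.6% ± 6.46) and by 12.7 points in DSE vs. saline. The window just outside the Il7 limit shares 500 bp with the called one and differed by 1.51 points in DSE vs. saline. Near the call limit inside the loci lay the Il33 window 0.612 kb before the upstream start, with 5.62% ± 1.26 in saline and 14.4% ± 7.16 in OVA-induced mice (9.26 points, adjusted likelihood ratio p = 0.0117; exact permutation p = 0.2).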

How the data were processed

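The deposited values are counts made by the authors: total, methylated and unmethylated CpG calls per mouse in windows of 1000 bp moved by 500 bp, not normalized and listed where every mouse had 10 calls or more. The submitters' processing notes name cutadapt 1.10, Bismark 0.19.0, methylKit 1.0.0 and the build mm10. Overlapping windows count most calls in 2 windows, and calls from 1 molecule are not independent.

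From these counts, likelihood ratio tests in a logistic model (Python 3.11.15, numpy 2.4.6, scipy 1.17.1) were run on all windows with 20 calls in at least 2 mice per group, with Benjamini-Hochberg adjustment over all of them. limma 3.58.1 was run on M-values (log2 ratio with a pseudocount of 1). The tests were checked on simulated data. Genes came from 45756 RefSeq transcripts of GRCm38.p6; promoter sequences are RefSeq's, and the sequence of a Crlf2 stretch is not reported here. The members, gene lists and thresholds were chosen with earlier results of these data known. The windows named are those nearest to each start, the called window with the largest difference per gene, direction and comparison, and those in which OVA-induced mice lay outside both other groups; neighbouring windows and those just under a limit were added after their values were seen. Alternatives were other call minimums, tests, scalings, margins, a replicate block and each mouse left out. Mean chi-square per window between mice of a group was 2.59 to 3.66, and no 2 libraries held the same calls. Whether mice shared a litter or a batch is not given in the sources used here.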

Additional observations from a re-analysis of the deposited data

Results flagged for a closer look

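Among 23 sets of 4 DSE-treated mice, 3 had 1 mouse far from the others, where chance flags about 1 in 20. In the Il1rl1 window within Il18r1 (chr1:40478501-40479500), DSE replicate 3 measured 66.85% while the other DSE-treated mice lay at 51.0 to 52.9%. In the Il17rb start window (chr14:30008501-30009500), DSE replicate 3 measured 8.34% while the others lay at 6.44 to 6.67%. For the Crlf2 locus mean, DSE replicate 2 measured 61.56% and the others 62.4 to 62.5%.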

How the results depend on the processing

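The counts of called windows were 6, 3 and 4 in OVA vs. saline, DSE vs. OVA and DSE vs. saline. limma, limma with all mice (chosen after seeing the data) and the F test each counted 0 in all 3. A difference of at least 20 points left 1, 1 and 0, and windows that do not overlap 2, 1 and 2 of 59, 59 and 60 tested. Gene spans without extension gave 2, 1 and 1 of 53, 53 and 54 tested. Gene spans extended by 50 kb gave 15, 9 and 16 of 246, 248 and 248 tested. Unweighted means gave 9 in DSE vs. saline, and calls whose mice also did not overlap, chosen after seeing the data, gave 2 there. Leaving out each mouse gave 2 to 7, 2 to 3 and 3 to 8; the lowest came without saline replicate 1 (2) and OVA replicate 3 (3) in OVA vs. saline, and the highest without saline replicate 2 (7), saline replicate 3 (7) and DSE replicate 1 (8) in DSE vs. saline. Scaled calls, at least 2 CpGs, coverage of all mice, a minimum of 50 calls and none at all kept each count within 1.5 times. Mice with the same replicate number did not deviate together (correlations -0.0273 to 0.0785), and the replicate block gave 5, 3 and 3. Of 836 recomputed differences at named windows, 66 lost a call, 1 gained one and none of the called ones changed sign. Of 72 recomputed locus means 34 moved by more than 1 SD between mice; with calls pooled over windows the Il7 difference in OVA vs. saline went from 2.35 to -0.306 points and that of Crlf2 from -0.347 to 1.6. The causes were not tested. Depth limited the windows with under 100 calls, where the SD between mice had a median of 3.67 to 6.35 points against 1.27 to 1.94 at 500 calls or more.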
